A study of Bos taurus with 19 samples.

Results

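The gene described here is ENSBTAG00000010564, listed as ELOVL6, and it is 1 of 25670 genes in the count files. It was chosen by its Ensembl identifier as 1 of 2 genes of fatty acid desaturation and elongation, and it is the 1 of these 2 identifiers that was matched. The other, SCD (ENSBTAG00000045728), is not analysed here. The count files carry identifiers without symbols, and the RefSeq table used here holds 37063 genes with 0 Ensembl identifiers, so the symbol ELOVL6 is taken from the list that named the gene and was not checked. For the same reason the markers of adipocytes, stromal cells and other cells of the tissue were not matched to identifiers, and the labelled tissue was not checked against them.

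As background to that symbol, ELOVL6 is a membrane enzyme of the endoplasmic reticulum that starts the elongation of palmitoyl-CoA to stearoyl-CoA. Palmitoyl-CoA is the CoA ester of palmitate, the main product of fatty acid synthase. Stearoyl-CoA is in turn the preferred substrate of the desaturase SCD, which makes oleoyl-CoA for storage in triglyceride. In ruminants adipose tissue is the main site of fatty acid synthesis, and ELOVL6 is a known target of the insulin-responsive transcription factor SREBP-1c.

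Gene expression was measured by RNAseq in the subcutaneous adipose tissue of 19 Holstein-Friesian bull calves, with 1 library per animal. On the high plane of nutrition (n = 10; overall growth rate 1.08 kg/day in the labels) calves were given the larger milk replacer allowance and concentrate ad libitum. On the low plane of nutrition (n = 9; 0.5 kg/day in the labels) both milk replacer and concentrate were restricted. The study describes 10 low calves and gives them a slightly higher growth rate than the labels do. All calves were male, were bought from commercial farms, had access to straw and water, and were slaughtered at 126 days of age, when tissue from the flank was taken with visible blood vessels removed. The tissue was analysed whole, so that fewer adipocytes in a sample and less RNA of the gene per adipocyte cannot be told apart.

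Reads counted on genes ranged from 8608800 to 17691547 per library in the high and from 7656100 to 12348770 in the low animals, with larger libraries on the high diet (exact permutation over 92378 splits, two-sided, p = 0.0251). The factors of the trimmed mean of M-values (TMM) scaling also differed, from 0.829 to 0.987 in the high and from 1.05 to 1.15 in the low animals. The animals D64, D75 and D78, named as in the labels, lay nearest the other diet. On the first principal component of all other tested genes, which held 45% of their variance, the high animals D64 (-0.0549) and D75 (-0.0782) were below the low animal D78 (-0.0207), whereas the means were 0.178 in the high and -0.198 in the low animals. The differences between the diets in mean log2 level, in fitted fold change and in share of reads are therefore also given without D64, D75 and D78. These animals were picked from the same data, so leaving them out tends to widen a difference between the diets.

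Expression of the ELOVL6 identifier was lower on the low than on the high plane of nutrition. In the high animals the level in TMM-normalized CPM (counts scaled to library size) was 464 in D62, 240 in D65, 238 in D72, 179 in D74, 88.9 in D73, 61.2 in D71, 61 in D63, 30.3 in D61, 14.3 in D64 and 14.1 in D75. In the low animals it was 17.4 in D78, 12 in D70, 6.11 in D68, 4.90 in D67, 3.49 in D66, 3.13 in D79, 3.12 in D76, 2.58 in D77 and 1.67 in D69. The diets therefore overlapped in a narrow band only, where the low animal D78 lay above the high animals D64 and D75. In 88 of the 90 pairs of a high and a low animal the high animal had the higher TMM-normalized CPM. Of the 10064 genes tested, 2.83% had at least 88 of 90 pairs in that order, and in 1.27% all low animals lay below all high animals.

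**Figure D1:**
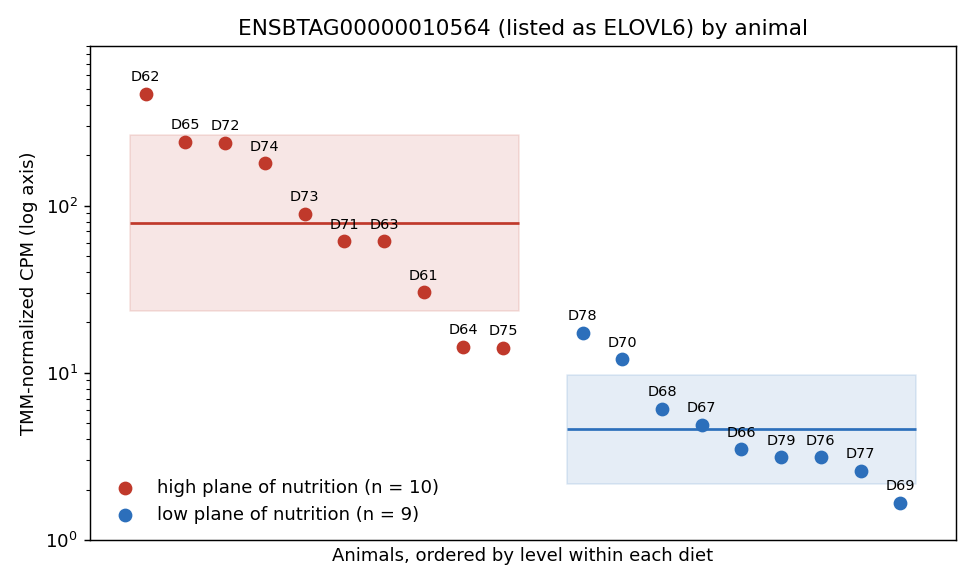
TMM-normalized CPM of the ELOVL6 identifier in each animal on a log axis, with 1 point per animal, a line at the geometric mean of each diet and a band of 1 SD on the log2 scale. The high animals spread from 14.1 to 464 and the low animals from 1.67 to 17.4, and D78 is the only low animal above any high animal.

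The level averaged 139 ± 143 CPM on the high diet (SD, n = 10) and 6.05 ± 5.26 CPM on the low diet (SD, n = 9). The SD in the high animals was as large as the mean, because 4 of the 10 animals held 80.6% of the summed level. The size of the difference therefore depended on how the centre was taken. The ratio of high to low was 23.0 between the means, 21.5 between the medians (75 and 3.49 CPM) and 17.2 between the geometric means (79.1 and 4.60 CPM). On the log2 scale it averaged 6.31 ± 1.75 on the high diet (SD, n = 10) and 2.20 ± 1.08 on the low diet (SD, n = 9), a difference of -4.10 (low minus high; exact permutation over 92378 splits, two-sided, p = 8.66e-05). Without D64, D75 and D78 this difference was -4.96.

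In the quasi-likelihood F test of edgeR, fitted over all 10064 genes, the log2 fold change (low minus high) was -4.54 (SE 0.689), with a Benjamini-Hochberg adjusted p-value of 0.000132. Without D64, D75 and D78 it was -5.21 (SE 0.575; adjusted p = 7.57e-06 in edgeR). For background, 18.5% of the genes tested were lower in the low animals at an adjusted p-value below 0.05, and 5.36% were so with a fold change above 2. Among all genes tested the identifier had the eleventh most negative estimate, and only 0.139% of genes (14 genes) fell more than 16-fold in the low animals. Its p-value was less extreme than its fold change, at rank 137 of 10064 over all genes and rank 79 among the 539 genes lower by more than 2-fold. The median log2 fold change was 0.02 over all genes tested and -1.42 over those 539 genes.

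**Figure D2:**
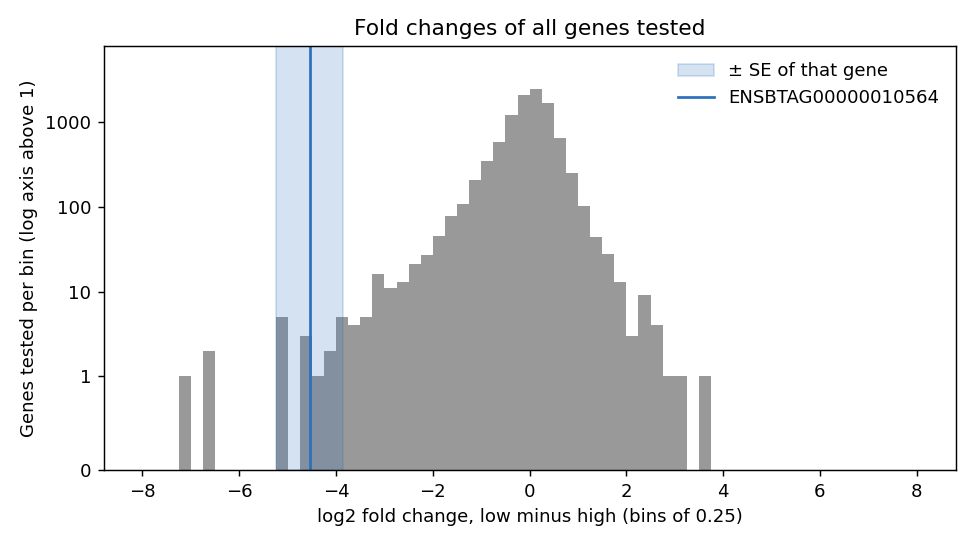
Number of tested genes in bins of 0.25 of the log2 fold change (low minus high), on an axis that is logarithmic above 1, with a line at the ELOVL6 identifier and a band of ± 1 SE. The identifier, at -4.54, lies in the sparse left tail, and most of the 10064 genes lie near the median of 0.02.

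The gene entered the test through the high animals. The filter asked for at least 5 CPM before TMM scaling in at least 9 libraries, and the identifier passed it in 10 of 10 high but in 4 of 9 low animals. Among genes with such a pattern a lower level on the low diet is partly built into the selection. With no filter beyond 1 read the log2 fold change was -4.55 (SE 0.728; adjusted p = 0.000305 in edgeR) among 18679 genes.

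As a share of all reads counted on genes, a measure that does not use TMM scaling, the ELOVL6 identifier took 0.0120% ± 0.0118 on the high diet (SD, n = 10) and 0.000658% ± 0.000555 on the low diet (SD, n = 9). The difference of -0.0114 percentage points was about as large as the SD of the high animals alone, and it passed the test of the labels (exact permutation over 92378 splits, two-sided, p = 0.00124). Without D64, D75 and D78 it was -0.0142. These shares rest on 115 to 4342 reads in the high and 19 to 139 reads in the low animals. The largest share was 0.0383% in D62 (95% Wilson interval 0.0372 to 0.0394) and the smallest 0.000184% in D69 (0.000117 to 0.000287). By share, unlike by TMM-normalized CPM, the low animal D70 (0.00135%) lay just above the high animal D75 (0.00134%). In the band where the diets met, the intervals of D78 (0.00154 to 0.00214%), D64 (0.00119 to 0.00164%), D75 (0.00111 to 0.00160%) and D70 (0.00114 to 0.00159%) all overlapped. That of D78 did so only at its lower end. Overlap of intervals does not decide the order among these 4 animals, which was not tested. The intervals cover counting error only. At the top of the high group those of D62 (0.0372 to 0.0394%) and D65 (0.0203 to 0.0217%) did not overlap.

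Variation between animals of the same diet was large for this gene. The highest level was 32.9 times the lowest in the high and 10.4 times the lowest in the low animals. The biological coefficient of variation estimated by edgeR, which is the relative spread between animals beyond counting error, was 0.842, whereas the median over all tested genes was 0.228, and only 61 of 10064 genes had a larger one. By the SD of log2(CPM + 0.5) the identifier ranked 28 of 10064 in the high animals (1.73, beside a median of 0.28 over all genes) and 236 in the low animals (0.99, beside 0.33). The spread on the log2 scale was not shown to differ between the diets, as the mean absolute deviation from the diet median was 1.42 in the high and 0.80 in the low animals (exact permutation over 92378 splits, two-sided, p = 0.135).

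The level of the ELOVL6 identifier within each diet was set beside 3 measures of the whole library, giving 6 relations with Benjamini-Hochberg adjustment over them. The first measure was the first principal component of all other tested genes after each diet was centred on its own mean, which held 30.5% of the remaining variance and whose sign was set to follow the gene. In the high animals Pearson's r with log2 CPM was 0.97 (n = 10, permutation p = 4.0e-05, adjusted 0.00024) and Spearman's rho was 0.95 (permutation p = 0.00015, adjusted 0.00090). In the low animals r was 0.86 (n = 9, exact permutation p = 0.00218, adjusted 0.00437) and rho was 0.80 (exact permutation p = 0.0138, adjusted 0.0277). Without the 2 animals farthest from the median of the component, r was 0.95 in the high (without D64 and D75) and 0.75 in the low animals (without D69 and D70). Animals with a high level of the gene thus stood towards 1 end of this component, which was fitted over both diets together. Its scores spread more widely in the high (-0.425 to 0.400) than in the low animals (-0.262 to 0.197). No component was fitted within 1 diet alone, so it is not shown to be the main axis of variation within each diet.

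Library size moved with the level in the high animals. There r between log2 library size and log2 CPM was 0.71 (n = 10, permutation p = 0.0212, adjusted 0.0318) and rho was 0.71 (permutation p = 0.0266, adjusted 0.0398), and r was 0.62 without D65 and D72. In the low animals the relation had the opposite sign and did not pass the test, with r = -0.56 (n = 9, exact permutation p = 0.115, adjusted 0.139) and rho = -0.65 (exact permutation p = 0.0666, adjusted 0.0799). It also rested on D76 and D78, without which r was -0.20. Whether the relation differed between the diets was not tested. The TMM factor fell with the level in the high animals, with r = -0.88 (n = 10, permutation p = 0.00129, adjusted 0.00387) and rho = -0.89 (permutation p = 0.00132, adjusted 0.00396), and r was -0.84 without D62 and D72. In the low animals r was -0.35 (n = 9, exact permutation p = 0.362, adjusted 0.362), rho was -0.18 (exact permutation p = 0.644, adjusted 0.644), and r was 0.17 without D66 and D78. The level is itself divided by the TMM factor, so part of a negative relation between them is built in. The relation was not repeated on the share of reads, which does not use that factor. Scaled by total counts only, with no TMM factor, the log2 fold change between the diets was -4.21 (SE 0.654; adjusted p = 6.03e-05 in edgeR).

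**Figure D3:**
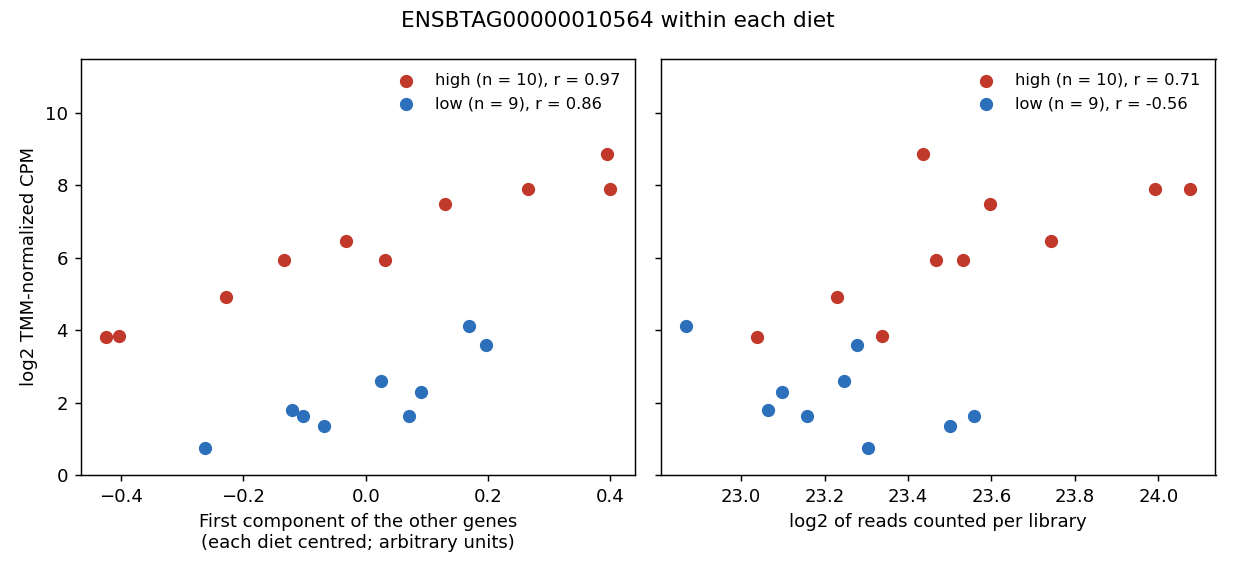
The log2 TMM-normalized CPM of the ELOVL6 identifier against the first principal component of the other genes (left, arbitrary units, each diet centred) and against log2 reads counted per library (right), with 1 point per animal and Pearson's r for each diet. The level rose with the component in both diets (r = 0.97 and 0.86), whereas r with library size was 0.71 in the high and -0.56 in the low animals.

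Because library size differed between the diets, the comparison was repeated with depth held alike. Over the 6 high and 8 low animals whose totals lay in the range that both diets shared (8608800 to 12348770 reads), the mean log2 CPM was 5.55 in the high and 1.96 in the low animals, a difference of -3.59 (exact permutation over 3003 splits, two-sided, p = 0.000333). That p-value is the smallest that 3003 splits allow. The range left out D78, the only low animal above any high animal in TMM-normalized CPM, so the diets no longer overlapped. It also left out the high animals D65, D72, D74 and D73 (240, 238, 179 and 88.9 CPM), which ranked 2 to 5 of 19 in level. The difference of -3.59 thus rests on other animals than the -4.10 over all 19, and does not show the effect of depth alone. With every library thinned to 7656100 reads the log2 fold change was -4.49 (SE 0.674; adjusted p = 0.000124 in edgeR). With log2 library size as a covariate it was -4.12 (SE 0.873; adjusted p = 0.00428 in edgeR).

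**Figure D4:**
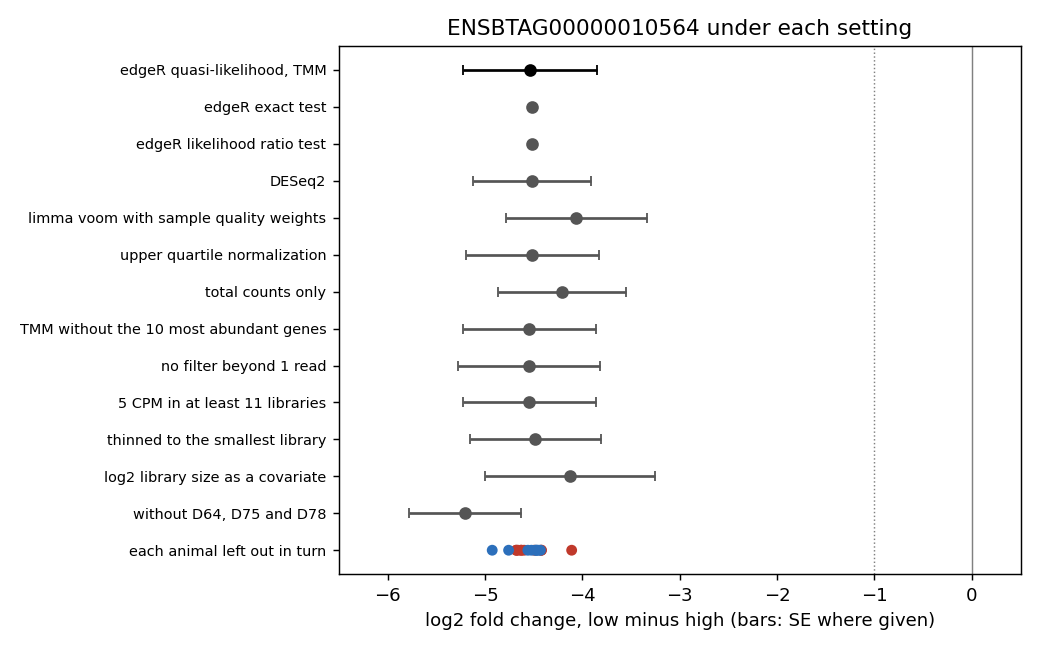
Estimated log2 fold change (low minus high) of the ELOVL6 identifier under each test, scaling, filter and choice of animals, with bars of 1 SE where the method gives one, and in the last row 1 point for each animal left out (red for high, blue for low). All estimates lie between -5.21 and -4.06, left of the dotted line that marks a 2-fold change.

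Genes with a pattern like that of the ELOVL6 identifier were sought by Pearson's r of log2(CPM + 0.5) over the 19 animals, after each diet was centred on its own mean so that the difference between diets did not enter. These values are a description without a test, and the animals share libraries and scaling across genes. Of the other 10063 genes, 114 had r above 0.9 and 483 had r above 0.8, whereas 52 had r below -0.8, and the median was 0.00. The 5 most alike had r from 0.965 to 0.974. The first was ENSBTAG00000014272 (r = 0.974; 0.977 in the high and 0.969 in the low animals), whose log2 fold change was -1.76 (SE 0.305; adjusted p = 0.00034 in edgeR).

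Most genes that followed the ELOVL6 identifier from animal to animal within a diet were also lower on the low diet. Of the 100 most alike, 99 were lower in the low animals at an adjusted p-value below 0.05 in edgeR and 0 were higher, beside 18.5% lower among all genes tested, and their median log2 fold change was -1.59. Of the 100 least alike, with r down to -0.91, 0 were lower and 65 were higher, beside 18.7% higher among all genes tested, with a median of 0.47. Of the 538 other genes lower by more than 2-fold on the low diet, 494 had an r above 0. The median r of the 538 was 0.83, beside 0.00 over all 10063 other genes. When the diets were taken apart, 19 of the 100 genes most alike within the high animals were among the 100 most alike within the low animals. For background, each list held 100 of the 10063 other genes. Of these lists, 97 and 76 genes were lower on the low diet.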

How the data were processed

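RNAseq libraries from 19 bulls were analysed, grouped by the diet in the labels. The deposited values are raw counts of reads per Ensembl gene. Per the labels and the study's methods, the authors aligned single-end reads with STAR to UMD3.1, discarded reads that mapped to several places or carried 2 or more mismatches, and counted the rest with HTSeq.

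A minimum of 5 CPM in 9 or more libraries left 10064 of 25670 genes. Tests used R 4.3.3 and edgeR 4.0.16 (TMM scaling, robust quasi-likelihood F test, Benjamini-Hochberg adjustment, diet as the only term). Standard errors were taken as the size of the log2 fold change over the square root of F. On simulated data, 200 of 200 genes changed 3-fold among 10064 were recovered, with 10 false calls. The simulation gave all genes the same spread between animals, smaller than that of the ELOVL6 identifier (biological coefficient of variation 0.842). It therefore does not show how the test performs on so variable a gene. Single values were compared by exact permutation, and relations over 10 animals by 100000 permutations. The smallest library had 7656100 counted reads, so 5 CPM rests on as few as 38.3 reads.

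Alternatives were other tests (DESeq2 1.42.0, limma 3.58.1), scalings, filters, thinning, a library size covariate and leaving out animals. The gene and the gene lists were chosen with earlier results of these data known. The named genes were to be both members, the genes of the lists, and the 5 genes most alike to each member. Because identifiers were not paired with symbols, 1 of the 5 is given, and the 15 pathway and marker lists and ratios to adipocyte markers are not analysed here. SCD, its ratio to the gene, and sequences are not analysed here either. Lane, sire and farm were not used.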

Additional observations from a re-analysis of the deposited data

Results flagged for a closer look

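The high animal D62 stood apart from the other 9 high animals in the level of the ELOVL6 identifier (464 CPM, beside 240 in the next animal) and in its share of reads (0.0383%, beside 0.0210%), by Dixon's test of the gap to the nearest animal. The gap was 0.497 of the range for the level and 0.467 for the share, beside a critical value of 0.466, so the share passed only narrowly. On the log2 scale D62 did not stand apart. Dixon's test was run on 10 sets of values (5 measures in each diet), and chance alone gives about 1 in 20. Both results use the same reads and so are not independent. Without D62 the log2 fold change was -4.11 (SE 0.628; adjusted p = 0.000204 in edgeR).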

How the results depend on the processing

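Under the 12 other settings of test, scaling, filter, depth and animals, the log2 fold change of the ELOVL6 identifier ranged from -5.21 (without D64, D75 and D78) to -4.06 (limma voom with sample quality weights), and each of them kept the direction and an adjusted p-value below 0.05, the largest being 0.00428 with log2 library size as a covariate. Scaling by total counts only, which moved the median over all genes tested from 0.02 to 0.30, gave -4.21. DESeq2 gave -4.52. Leaving out each animal in turn gave -4.93 (without D78) to -4.11 (without D62), with adjusted p-values up to 0.000404. The difference in share of reads was -0.0114 percentage points with all animals, -0.0142 without D64, D75 and D78, -0.0149 with the 10 most abundant genes and the gene itself left out of the total, and -0.0126 to -0.00846 with 1 animal left out (exact permutation p up to 0.00644). The difference in mean log2 level, a measure chosen after the data were seen, was -4.10 with all animals, -4.96 without D64, D75 and D78, -3.94 with a pseudocount of 0.5 CPM, -3.83 on the log2 share of reads and -4.38 to -3.82 with 1 animal left out. The range of shared library totals was also chosen after the data were seen. D64, D75 and D78 were picked from these same data as nearest the other diet. The setting without them is therefore not an independent check. The study's methods describe calves blocked by age, sire, farm and starting weight before they were assigned to a diet. The labels give no blocks and share no animal numbers between the diets, so no paired or blocked analysis was possible. Levels in the low animals rest on 19 to 139 reads, which limits the order among them.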
